A study of Mus musculus with 93 samples.

Results

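The 10 genes described here are Saa1, Saa2, Saa3 and Saa4 (serum amyloid A), Orm1, Orm2 and Orm3 (orosomucoids), Lcn2 (lipocalin 2), Hp (haptoglobin) and Hpx (hemopexin). They were chosen by symbol among 53465 genes counted in the liver, and all 10 were found and passed the filter on low counts, together with 19110 genes in all. RNA was sequenced from the whole liver of 93 male mice of 7 inbred strains, of which C57BL/6J, DBA/2J, A/J and 129S1/SvImJ are classical laboratory strains and WSB/EiJ, CAST/EiJ and PWK/PhJ are wild derived. The mice carried no engineered allele. All were kept at thermoneutrality (TN, 30°C) from 6 wk of age and were fed, over the 17 wk that began at 7 wk of age, a control diet (CD, 10% of energy from fat) or a Western diet (WD, 40%), and were killed at 24 wk after a short fast. C57BL/6J had 8 CD and 8 WD mice, CAST/EiJ 7 and 8, PWK/PhJ 6 and 7, DBA/2J 6 and 7, 129S1/SvImJ 7 and 6, WSB/EiJ 6 and 6, and A/J 5 and 6. The comparisons ask how WD-TN changed these transcripts in each strain and whether strains differed in their level or in their response. The liver is a mixture of cells, so more cells of a type and more RNA per cell cannot be told apart, and a strain is 1 inbred genotype.

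Acute phase proteins are plasma proteins whose hepatic output changes in inflammation. In hepatocytes, IL-6 acts through the shared receptor gp130 and STAT3, and IL-1 and TNF act through NF-kB, while the factors C/EBPβ and C/EBPδ bind many of the same promoters. SAA1 and SAA2 are the inducible forms carried on high-density lipoprotein, SAA4 is the constitutive form, and SAA3 in the mouse is also made by macrophages and adipocytes. Orosomucoids (α1-acid glycoproteins) bind lipophilic ligands in plasma, lipocalin 2 holds back iron by binding bacterial siderophores and is stored in neutrophil granules, haptoglobin binds free hemoglobin, and hemopexin binds free heme.

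On the GRCm38 build, the 4 Saa genes lie together on chromosome 7, Saa3 at chr7:46711998-46715700, Saa4 at chr7:46727998-46732603 and Saa1 at chr7:46740497-46742980 on the minus strand, and Saa2 at chr7:46751790-46754313 on the plus strand. The 3 Orm genes follow each other on the plus strand of chromosome 4, Orm1 at chr4:63344560-63348163, Orm3 at chr4:63356162-63359511 and Orm2 at chr4:63362449-63365878. Lcn2 lies at chr2:32384633-32388252, Hp at chr8:109575128-109579172 and Hpx at chr7:105591613-105600137, all 3 on the minus strand. No other annotated gene overlaps any of them. The promoters are shown because several of these genes moved together. Each run below is the 250 bases before the RefSeq start on GRCm38.p6, 5′ to 3′ on the gene's strand, and 8 of the 10 genes had an entry, Orm1 and Hp not. Capitals mark a match to the C/EBP motif TTGCNNAA on either strand, or to TATAAA. The windows are chr7:46742981-46743230 (minus) for Saa1, chr7:46751583-46751832 (plus) for Saa2, chr7:46732604-46732853 (minus) for Saa4, chr4:63362199-63362448 (plus) for Orm2, chr4:63355908-63356157 (plus) for Orm3 and chr2:32387740-32387989 (minus) for Lcn2.
Saa1: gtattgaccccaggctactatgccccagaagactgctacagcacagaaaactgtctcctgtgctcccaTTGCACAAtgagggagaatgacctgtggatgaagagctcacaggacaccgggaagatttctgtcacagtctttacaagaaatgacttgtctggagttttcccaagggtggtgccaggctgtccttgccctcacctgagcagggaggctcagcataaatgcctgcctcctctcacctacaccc
Saa2: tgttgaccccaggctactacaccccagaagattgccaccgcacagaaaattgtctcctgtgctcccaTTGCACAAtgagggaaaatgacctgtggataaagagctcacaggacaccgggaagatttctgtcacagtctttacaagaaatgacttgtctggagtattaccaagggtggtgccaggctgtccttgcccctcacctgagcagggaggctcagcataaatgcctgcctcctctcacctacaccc
Saa4: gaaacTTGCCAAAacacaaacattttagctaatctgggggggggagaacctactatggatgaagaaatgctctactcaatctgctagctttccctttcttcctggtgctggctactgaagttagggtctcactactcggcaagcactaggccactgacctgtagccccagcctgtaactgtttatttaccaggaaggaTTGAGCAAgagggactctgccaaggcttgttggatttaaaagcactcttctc
Orm2: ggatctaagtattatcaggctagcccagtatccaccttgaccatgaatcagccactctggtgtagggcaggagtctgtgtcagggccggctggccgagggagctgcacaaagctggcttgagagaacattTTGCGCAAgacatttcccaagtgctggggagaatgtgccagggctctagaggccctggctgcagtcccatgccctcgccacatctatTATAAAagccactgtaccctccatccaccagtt
Orm3: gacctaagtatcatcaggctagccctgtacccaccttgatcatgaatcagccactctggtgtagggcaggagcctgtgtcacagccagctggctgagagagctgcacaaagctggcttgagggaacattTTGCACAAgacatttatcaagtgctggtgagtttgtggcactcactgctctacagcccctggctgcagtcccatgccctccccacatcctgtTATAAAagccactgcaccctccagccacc
Lcn2: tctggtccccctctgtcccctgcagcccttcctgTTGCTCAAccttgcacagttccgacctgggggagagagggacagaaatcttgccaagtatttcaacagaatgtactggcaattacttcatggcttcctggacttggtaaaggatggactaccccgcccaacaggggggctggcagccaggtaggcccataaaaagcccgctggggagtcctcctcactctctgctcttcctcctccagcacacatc

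A C/EBP match was present in all 8 of these promoters, Saa3 and Hpx included, against 9.56% of 32851 mouse promoter windows of the same length. It lay 182 to 175 bases before the start in Saa1 and 183 to 176 in Saa2, and the aligned Saa1 and Saa2 windows were 95.6% identical. In Orm2 and Orm3 it lay 120 to 113 and 121 to 114 bases before the start, and these windows were 89.0% identical. Saa4 held 2 matches and no TATAAA, which was found in Orm2 and Orm3 and in 12.4% of all windows. The NF-kB motif and the STAT motif TTCNNNGAA were in none of the 8 windows, against 7.25% and 7.02% of all windows, and the letters of a window do not tell whether a factor binds there. The C57BL/6J reference was used for all of these sequences, so bases that differ in the other strains are not shown.

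Reads assigned to genes numbered 40020424 to 49894856 per mouse (median 46618609), and RNA integrity numbers ran from 7 to 9.7. Levels are given as CPM, a count per megaread assigned to genes with library sizes scaled by the TMM method, and fold changes as log2 of WD over CD with 1 standard error (SE) from a limma-voom fit of all 14 groups, with p adjusted over the 19110 genes. A call means an adjusted p below 0.05. The median fold change of all genes lay between -0.01 and 0.02 on the log2 scale in every strain. All reads were mapped to the C57BL/6J genome, so a level difference between strains and a difference in how well the reads map cannot be told apart; the share of reads left unmapped averaged 2.11% to 13.3% by group. A pair of mice stood apart from their groups in Saa1: WSB/EiJ WD mouse 4 had 10892 CPM where the next mouse had 305 CPM, and CAST/EiJ CD mouse 4 had 356 CPM where the next had 8.89 CPM. Results for both strains are therefore also given without these 2 mice, a choice made after their values were seen. WSB/EiJ CD mouse 3 was also high in Saa1, at 2242 CPM where the next had 252 CPM, but within Dixon's limit. WSB/EiJ values are therefore also given without 3 mice, that is, without the 2 and this one, a choice made at the same stage.

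WD-TN raised most of the 10 genes in 4 strains and few in A/J and CAST/EiJ. In C57BL/6J 9 of 10 genes were upregulated, against 14.3% of all genes tested. In DBA/2J 8 rose (10.2% of all genes), in PWK/PhJ 8 (15.1%), in 129S1/SvImJ 7 (14.5%), in WSB/EiJ 5 (4.97%), in A/J 2 (4.39%) and in CAST/EiJ 1 (9.77%). The median log2 fold change of the 10 genes was 3.08 in PWK/PhJ, 2.44 in C57BL/6J, 1.59 in 129S1/SvImJ, 1.25 in DBA/2J, 1.09 in A/J, 1.02 in WSB/EiJ and 0.23 in CAST/EiJ. No gene of the 10 was downregulated by limma-voom in any strain, where 11.9% of all genes fell in C57BL/6J, 7.77% in DBA/2J, 4.64% in A/J, 13.6% in 129S1/SvImJ, 3.97% in WSB/EiJ, 9.73% in CAST/EiJ and 14.5% in PWK/PhJ. At an unadjusted p below 0.05, 1 gene was lower, Orm1 in CAST/EiJ, while edgeR called 0 and DESeq2 called 2, Saa1 and Saa2 in CAST/EiJ. The count for A/J ranged from 1 to 6 over the alternatives tried, and without the 2 mice it was 4. For WSB/EiJ the count was 4 without the 2 mice and without the 3, and for CAST/EiJ it was 2 in both. Without the 3 mice it was 10 in C57BL/6J and in PWK/PhJ, 9 in 129S1/SvImJ, 8 in DBA/2J and 5 in A/J. The fit shares the spread over groups, so leaving out these mice also changed the SE in strains that held none of them.

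**Figure D1:**
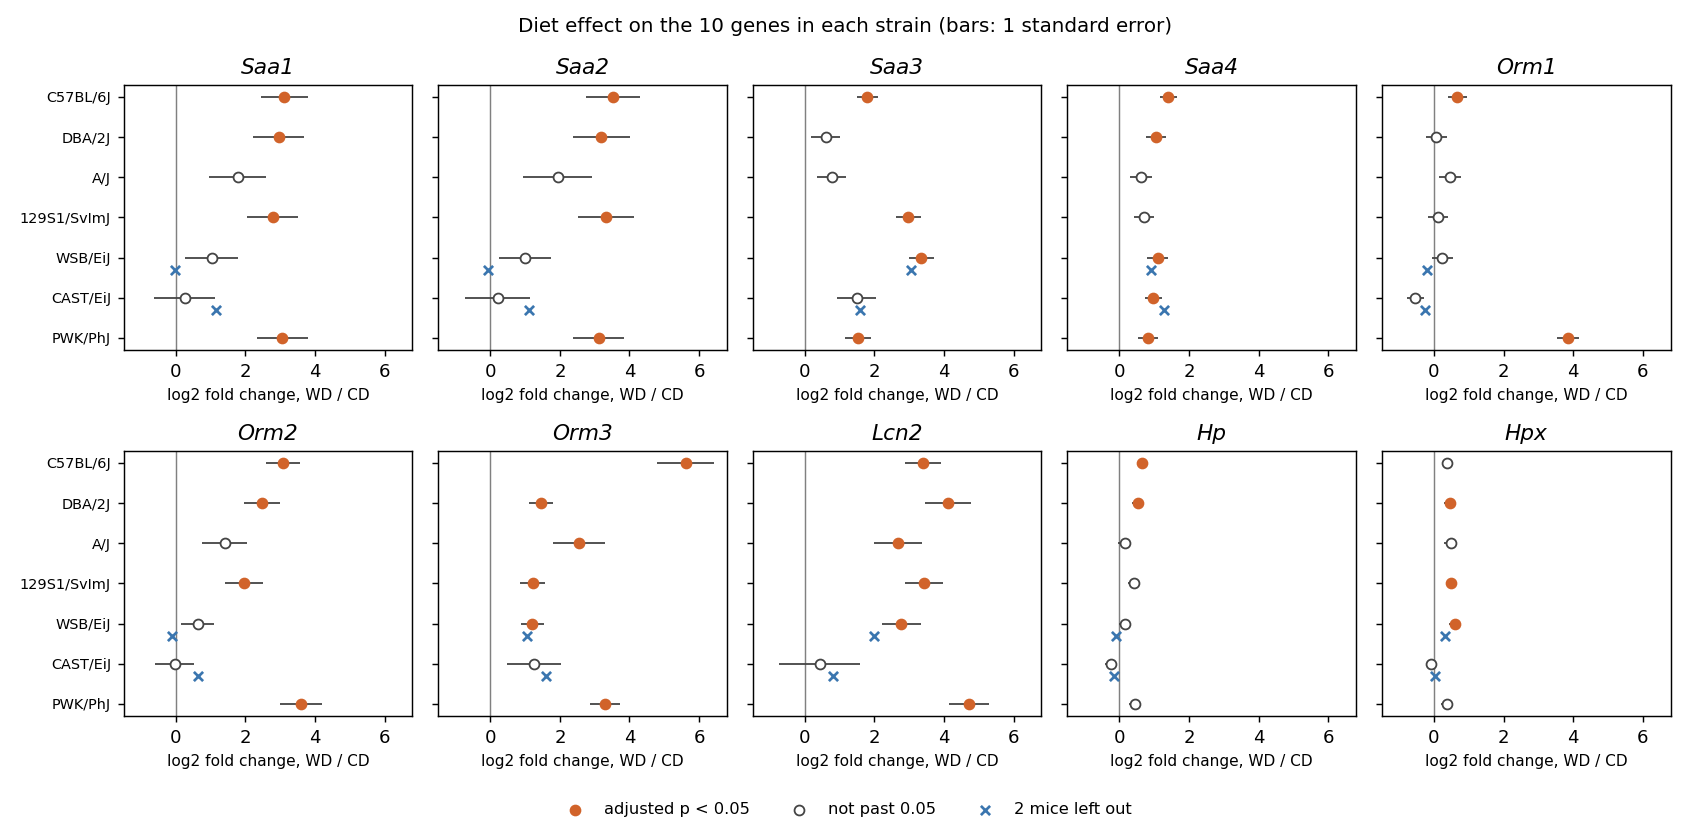
Log2 fold change of WD over CD (x axis) in each strain (y axis) for the 10 genes, 1 panel a gene, with bars of 1 SE. Filled points passed an adjusted p of 0.05, and blue crosses give WSB/EiJ and CAST/EiJ without the 2 mice that stood apart. Lcn2 ranged from 0.43 in CAST/EiJ to 4.71 in PWK/PhJ, whereas Hp and Hpx reached at most 0.66 in any strain.

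As a share of raw gene reads, without the TMM scaling of the CPM, the 10 genes took 0.953% ± 0.156 (SD, n = 6) on CD in PWK/PhJ. On WD they took 1.56% ± 0.238 (n = 7) there, the highest mean WD share of the 7 strains on this measure. In C57BL/6J the share was 0.565% ± 0.176 (n = 8) and 0.831% ± 0.0975 (n = 8). In CAST/EiJ it was 0.589% ± 0.173 (n = 7) and 0.558% ± 0.0574 (n = 8). Hpx and Hp supplied most of this. Per kilobase of the reference transcript, C57BL/6J CD livers had 2114 CPM of Hpx and 1146 of Hp against 453 of Orm1, 59.7 of Saa4, 30.0 of Saa1, 12.6 of Lcn2, 4.91 of Saa3 and 0.513 of Orm3.

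Saa1, the main inducible serum amyloid A, was upregulated in 4 strains. In C57BL/6J CD mice it ran from 10.7 to 36.7 CPM (median 15.3), and in WD mice from 63.2 to 264 (median 159), so that all 8 WD mice were above every CD mouse, with a log2 fold change of 3.12 (SE 0.68, adjusted p = 0.00021). PWK/PhJ rose from 19.2 to 201 CPM (median 41.8) on CD to 205 to 827 (median 490) on WD, a log2 fold change of 3.06 (SE 0.74, adjusted p = 0.00072). The CD and WD ranges of both strains did not overlap. DBA/2J rose by 2.96 (SE 0.73, adjusted p = 0.0019), from 10.0 to 117 CPM (median 45.7) on CD to 163 to 787 (median 232) on WD, and 129S1/SvImJ by 2.79 (SE 0.73, adjusted p = 0.0022), from 13.2 to 151 CPM (median 22.0) to 158 to 332 (median 178). In these strains too every WD mouse was above every CD mouse. The 5 A/J CD mice had 14.7, 23.8, 18.0, 19.4 and 14.4 CPM, and the 6 WD mice had 23.4 to 412 (median 44.9), a difference of 1.78 (SE 0.82, adjusted p = 0.17) that did not pass the test although 5 of 6 WD mice lay above all CD mice. The A/J difference was 1.78 (adjusted p = 0.077) without the 2 mice and 1.79 (adjusted p = 0.043) without the 3.

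WSB/EiJ and CAST/EiJ gave a different picture for Saa1. WSB/EiJ CD mice had 26.2 to 2242 CPM (median 114) and WD mice 46.4 to 10892 (median 160), with a log2 difference of 1.03 (SE 0.76, adjusted p = 0.47). The WSB/EiJ difference was -0.01 (adjusted p = 1.0) without the 2 mice, 0.80 (SE 0.59, adjusted p = 0.49) without the 3, and up to 1.84 with a single mouse left out. CAST/EiJ CD mice had 3.14 to 356 CPM (median 5.89) and WD mice 4.60 to 42.8 (median 11), with a difference of 0.25 (SE 0.88, adjusted p = 0.90), and of 1.15 (adjusted p = 0.38) without the 2 mice. The diets overlapped in both strains, and the WSB/EiJ CD median was the highest CD median of the 7 strains.

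Saa2 followed Saa1 closely. It was called in the same 4 strains, by 3.52 in C57BL/6J (SE 0.77, adjusted p = 0.00024), 3.32 in 129S1/SvImJ (SE 0.81, adjusted p = 0.0010), 3.19 in DBA/2J (SE 0.82, adjusted p = 0.0028) and 3.11 in PWK/PhJ (SE 0.74, adjusted p = 0.00059). Group means ran from 7.23 CPM ± 1.65 (SD, n = 5) in A/J CD mice to 261 ± 98.5 (n = 7) in PWK/PhJ WD mice, leaving WSB/EiJ aside. The reference transcripts of Saa1 and Saa2 are 94.4% identical, and 14.8% of the 50-base windows of Saa1 and 13.3% of those of Saa2 occur in another gene, so their separation by the counting is uncertain. Counted as a single feature, the pair rose by 3.25 in C57BL/6J (SE 0.69, adjusted p = 0.00014), 3.01 in DBA/2J (SE 0.76, adjusted p = 0.0023), 2.94 in 129S1/SvImJ (SE 0.76, adjusted p = 0.0019) and 3.07 in PWK/PhJ (SE 0.78, adjusted p = 0.0012), and not past the threshold in the other 3. The ratio of Saa1 to Saa2 reads differed by strain, with 3.70 ± 0.914 (SD, n = 6) in DBA/2J CD mice, 2.32 ± 0.347 (n = 8) in C57BL/6J CD mice and 1.19 ± 0.115 (n = 7) in CAST/EiJ CD mice. It was lower on WD than on CD in C57BL/6J (1.74 ± 0.126, n = 8) and 129S1/SvImJ (2.11 ± 0.356 against 3.04 ± 0.367), and close on both diets in PWK/PhJ (2.01 ± 0.130 and 1.95 ± 0.0440); no test was run on these ratios.

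**Figure D2:**
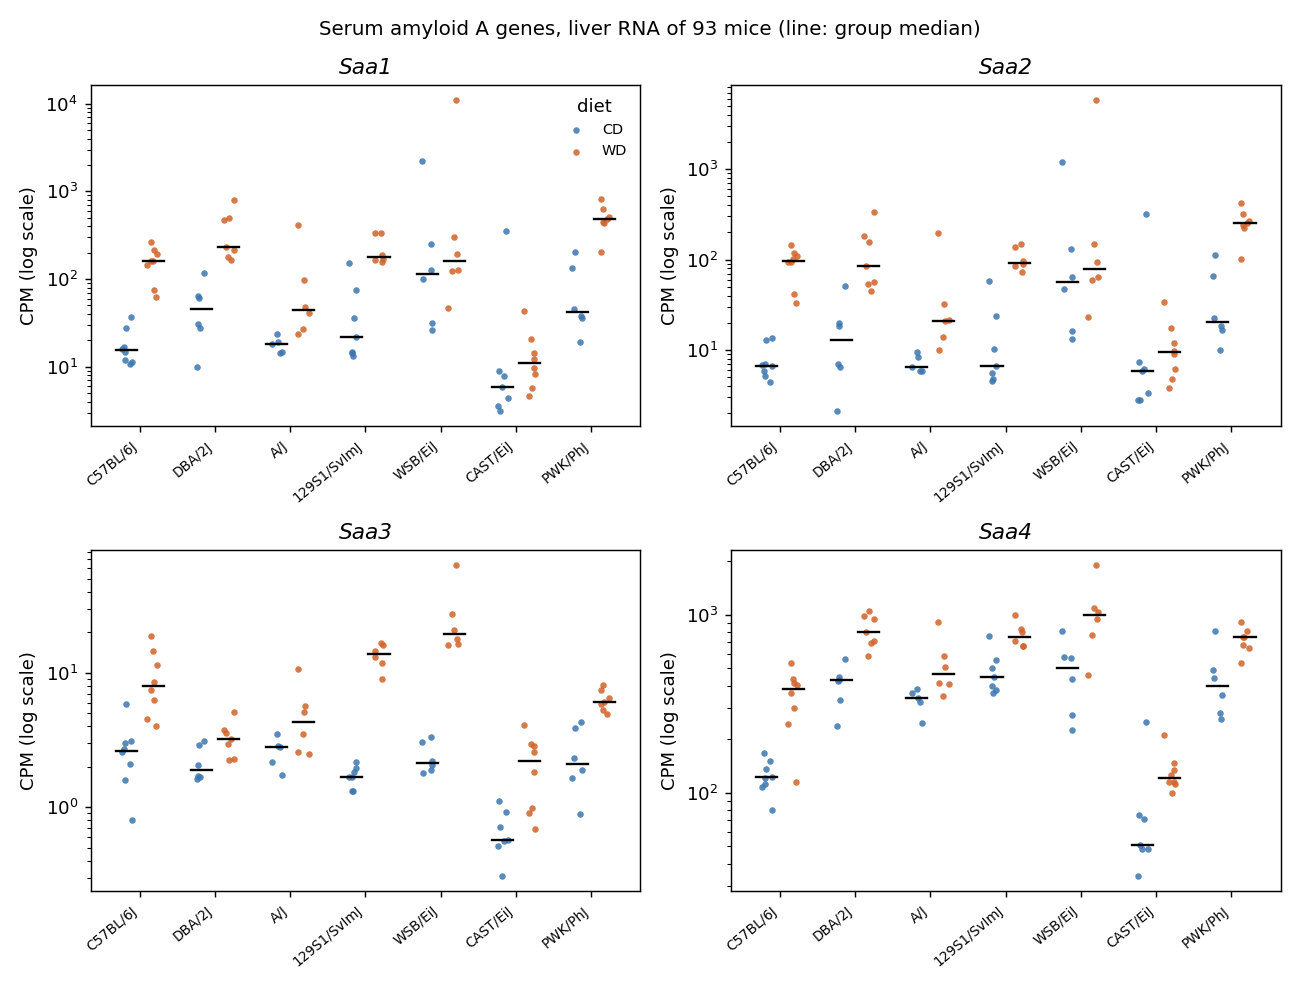
CPM on a log scale (y axis) of the 4 serum amyloid A genes in each of 93 mice by strain (x axis) and diet (blue CD, orange WD), with a line at each group median. Saa1 and Saa2 spread over more than an order of magnitude within WSB/EiJ, while Saa3 separated the diets in WSB/EiJ, 129S1/SvImJ and PWK/PhJ.

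Saa3 rose most in WSB/EiJ and 129S1/SvImJ. In WSB/EiJ it went from 1.80 to 3.33 CPM (median 2.13) on CD to 16.2 to 63.3 (median 19.3) on WD, a log2 fold change of 3.35 (SE 0.36, adjusted p = 3.5e-11), and of 3.06 (adjusted p = 5.5e-11) without the 2 mice. In 129S1/SvImJ it went from 1.32 to 2.17 CPM (median 1.69) to 8.96 to 16.7 (median 13.9), a log2 fold change of 2.98 (SE 0.37, adjusted p = 1.7e-09). All 6 WD mice were above all CD mice in both strains, as were all 7 in PWK/PhJ. C57BL/6J rose by 1.80 (SE 0.31, adjusted p = 3.8e-06), from 0.806 to 5.91 CPM on CD to 4.01 to 18.9 on WD, and PWK/PhJ by 1.52 (SE 0.37, adjusted p = 0.00090), from 0.884 to 4.29 to 4.93 to 8.16. On WD, WSB/EiJ exceeded 129S1/SvImJ by 0.83 (SE 0.23, adjusted p = 0.0024), a comparison in which 42.9% of all genes passed. DBA/2J (0.60, adjusted p = 0.36) and A/J (0.77, adjusted p = 0.26) did not pass the test, and CAST/EiJ had 0.310 to 1.11 CPM on CD and 0.686 to 4.13 on WD with a difference of 1.49 (SE 0.57, adjusted p = 0.054). Without the 2 mice the CAST/EiJ difference was 1.58 (adjusted p = 0.028). Of 10 recruited macrophage markers, 9 rose in 129S1/SvImJ and 4 in WSB/EiJ (3 without the 2 mice). Their sum was 62.6 to 111 CPM on CD and 160 to 257 on WD in 129S1/SvImJ. In WSB/EiJ the sum was 52.3 to 72.9 on CD and 57.6 to 204 on WD, so that the diets overlapped. In C57BL/6J and PWK/PhJ, where Saa3 rose less, 9 of 10 of these markers rose. The part of these markers in the Saa3 result was not tested.

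Saa4, the constitutive member, moved less and in more strains. It rose by 1.41 in C57BL/6J (SE 0.25, adjusted p = 7.1e-06), from 125 ± 26.6 CPM (SD, n = 8) to 352 ± 130 (n = 8). It also rose in WSB/EiJ by 1.10 (SE 0.30, adjusted p = 0.010), DBA/2J by 1.05 (SE 0.29, adjusted p = 0.0062), CAST/EiJ by 0.97 (SE 0.25, adjusted p = 0.0023) and PWK/PhJ by 0.82 (SE 0.29, adjusted p = 0.024). The 129S1/SvImJ difference of 0.71 did not pass (adjusted p = 0.059), but did without the 2 mice (0.71, adjusted p = 0.025). In DBA/2J all 7 WD mice were above all CD mice. In CAST/EiJ none of the 8 was, since CD mouse 4 had 249 CPM where the CD median was 51.0, and without the 2 mice the increase was 1.29 (adjusted p = 6.4e-06). CAST/EiJ had the lowest mean of Saa4 among the 7 strains on both diets, with WD mice at 99.7 to 212 CPM. The calls in WSB/EiJ and PWK/PhJ were lost when single mice were left out, in WSB/EiJ without WD mouse 4 or CD mouse 5, and in PWK/PhJ without CD mouse 1, 3 or 5. The WSB/EiJ rise passed at 0.90 (adjusted p = 0.020) without the 2 mice and at 1.07 (adjusted p = 0.0055) without the 3.

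Orm1 separated PWK/PhJ from every other strain. PWK/PhJ CD mice had 7.32 to 11.6 CPM (median 9.18), and no CD mouse of another strain had less than 106. On WD, PWK/PhJ mice had 63.7 to 264 CPM (median 145), a 14.6-fold increase (log2 3.87, SE 0.32, adjusted p = 3.7e-17). CAST/EiJ, the next strain up on CD at 229 ± 169 CPM (SD, n = 7), was 20.6-fold above PWK/PhJ (log2 4.36, SE 0.32, adjusted p = 1.9e-21), where 58.4% of all genes differed. On WD the same strains had 139 ± 43.7 (n = 8) and 151 ± 72.3 CPM (n = 7), a log2 difference of -0.04 (adjusted p = 0.91), where 62.1% of all genes differed. Above PWK/PhJ the order of the CD means was CAST/EiJ, A/J (278 CPM), C57BL/6J (351), 129S1/SvImJ (469), WSB/EiJ (540) and DBA/2J (680), with overlapping ranges between each of these neighbours.

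In the other strains the diet difference of Orm1 was small. C57BL/6J rose by 0.67 (SE 0.26, adjusted p = 0.048), from 186 to 468 CPM (median 363) to 333 to 639 (median 584), a call that was lost in 12 of 16 fits that left out 1 of its mice. WD mouse 3, the lowest at 333 CPM, had summed cholangiocyte markers of 53.3 CPM, where the other WD mice of the strain had 11.5 to 15.4, and the highest summed recruited macrophage markers of them (585 CPM). DBA/2J had 680 ± 112 CPM (n = 6) and 718 ± 153 (n = 7), a difference of 0.07 (adjusted p = 0.93), and 129S1/SvImJ had 469 ± 95 (n = 7) and 505 ± 84.6 (n = 6), a difference of 0.12 (adjusted p = 0.82). CAST/EiJ had 106 to 574 CPM (median 160) on CD and 81.1 to 210 (median 138) on WD, a difference of -0.53 (SE 0.26, adjusted p = 0.14).

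Orm2, the second orosomucoid of the cluster, was upregulated in 4 strains. PWK/PhJ went from 2.57 to 8.04 CPM (median 4.72) to 21.5 to 132 (median 60.3), a log2 fold change of 3.60 (SE 0.60, adjusted p = 1.3e-06). C57BL/6J rose by 3.08 (SE 0.49, adjusted p = 7.2e-07), from 3.44 to 18.5 CPM (median 5.34) to 35.4 to 81.8 (median 52.5), DBA/2J by 2.48 (SE 0.51, adjusted p = 0.00019) and 129S1/SvImJ by 1.97 (SE 0.55, adjusted p = 0.0039). Diets did not overlap in any of these 4. The difference was 1.40 in A/J (SE 0.65, adjusted p = 0.17), 0.63 in WSB/EiJ (SE 0.48, adjusted p = 0.49) and -0.03 in CAST/EiJ (SE 0.57, adjusted p = 0.98), and without the 2 mice it was -0.10 in WSB/EiJ and 0.64 in CAST/EiJ. In A/J it stayed at 1.40 without the 2 mice and passed (adjusted p = 0.044). Without the 3 mice it was 0.24 in WSB/EiJ (SE 0.39, adjusted p = 0.81).

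Orm3 had the widest range of CD means over strains among the 10 genes. C57BL/6J CD mice had 0.178 to 1.13 CPM (median 0.255), which are 9 to 67 reads a mouse, and WSB/EiJ CD mice had 56.6 to 96.8 (median 79.9). Between them stood A/J (1.32 CPM ± 0.259, n = 5), CAST/EiJ (1.35 ± 1.35, n = 7), PWK/PhJ (5.21 ± 0.720, n = 6), 129S1/SvImJ (10.9 ± 2.74, n = 7) and DBA/2J (15.4 ± 7.64, n = 6). The ranges of neighbours overlapped in this order except between PWK/PhJ and 129S1/SvImJ and between DBA/2J and WSB/EiJ. CAST/EiJ reached the PWK/PhJ range only through CD mouse 4 (4.33 CPM, where the next had 1.39). By median CAST/EiJ (0.847 CPM) lay below A/J (1.43). CAST/EiJ did not differ from C57BL/6J past the threshold (log2 1.60 higher, SE 1.02, adjusted p = 0.16, with 65.9% of all genes differing). WSB/EiJ was 5.67-fold above DBA/2J (log2 2.50, SE 0.36, adjusted p = 9.8e-09, with 41.7% of all genes differing).

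WD raised Orm3 in 6 strains. C57BL/6J WD mice had 1.45 to 35.4 CPM (median 23.1), a 49-fold increase (log2 5.61, SE 0.82, adjusted p = 1.0e-07), the largest of any of the 10 genes in any strain. The lowest of these WD mice, at 1.45 CPM, was again mouse 3. PWK/PhJ rose by 3.30 (SE 0.43, adjusted p = 1.8e-09) to 31.0 to 87.3 CPM (median 49.5), and A/J by 2.54 (SE 0.74, adjusted p = 0.018) to 2.91 to 24.9 (median 7.55). The A/J call was lost without WD mouse 3. DBA/2J rose by 1.46 (SE 0.35, adjusted p = 0.0013), 129S1/SvImJ by 1.22 (SE 0.36, adjusted p = 0.0074) and WSB/EiJ by 1.21 (SE 0.33, adjusted p = 0.010), the last to 146 to 323 CPM (median 166) and by 1.04 (adjusted p = 0.037) without the 2 mice. In all 6 strains every WD mouse was above every CD mouse. WSB/EiJ WD mice remained above PWK/PhJ WD mice by 1.84 (SE 0.32, adjusted p = 6.0e-07, with 60.8% of all genes differing).

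**Figure D3:**
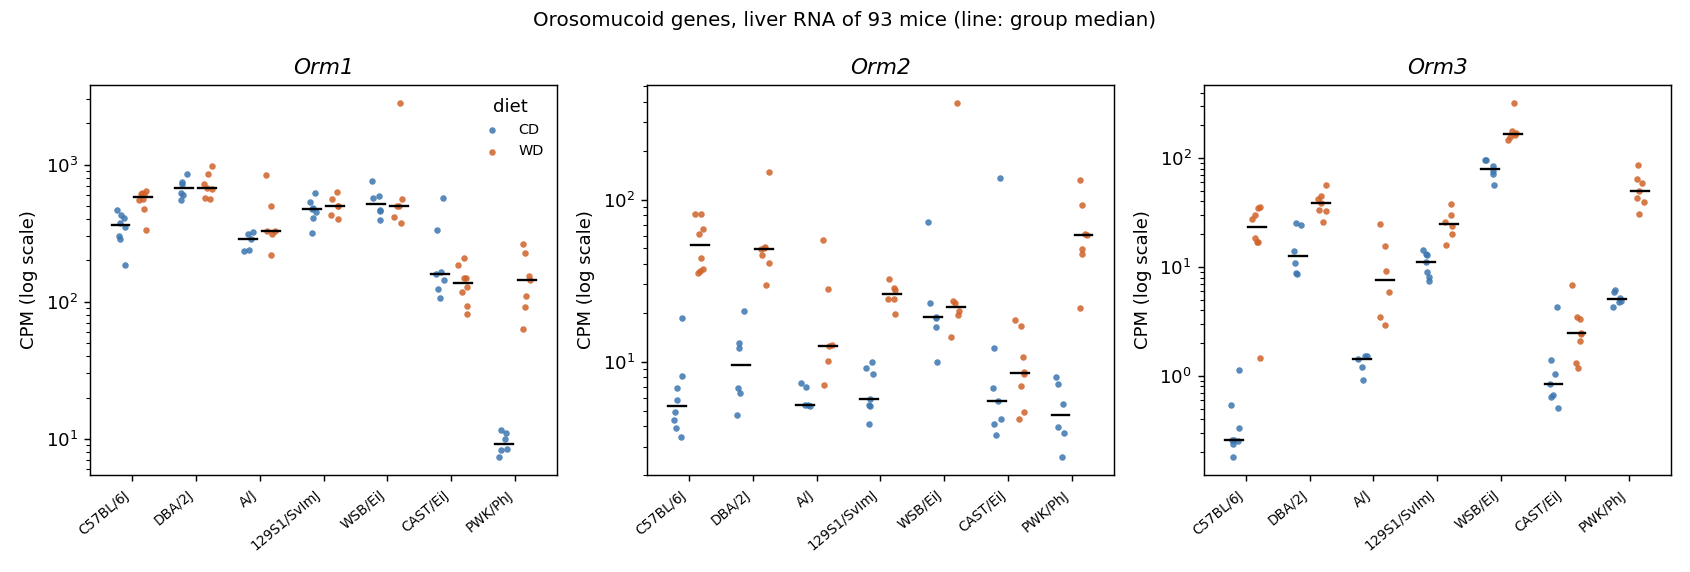
CPM on a log scale (y axis) of Orm1, Orm2 and Orm3 in each of 93 mice by strain (x axis) and diet (blue CD, orange WD), with a line at each group median. PWK/PhJ CD mice lie between 7.32 and 11.6 CPM for Orm1, apart from all other groups, and WSB/EiJ mice are the highest for Orm3.

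The balance within the Orm family differed accordingly. Orm1 gave 47.9% ± 6.75 (SD, n = 6) of the Orm reads of PWK/PhJ CD mice and 55.0% ± 3.13 (n = 7) on WD, and 73.1% to 97.5% in the group means of the other strains. Orm3 gave 12.6% ± 1.29 of the Orm reads of WSB/EiJ CD mice (n = 6) and 0.135% ± 0.168 of those of C57BL/6J CD mice (n = 8). The reference transcripts of Orm1 and Orm2 are 91.0% identical, Orm1 and Orm3 86.5%, and Orm2 and Orm3 88.5%, and 20.4%, 22.7% and 3.59% of the 50-base windows of Orm1, Orm2 and Orm3 occur in another gene, so reads of this family can be dropped or misassigned. Summed over the 3 genes, PWK/PhJ rose by 3.66 (SE 0.28, adjusted p = 2.1e-18) and C57BL/6J by 0.82 (SE 0.26, adjusted p = 0.012), while the other 5 strains did not pass the threshold.

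Lcn2 was raised in 6 strains, to the largest log2 value in PWK/PhJ. PWK/PhJ CD mice had 5.14 to 14.5 CPM (median 10.5) and WD mice 86.5 to 542 (median 256), a 26.2-fold increase (log2 4.71, SE 0.57, adjusted p = 2.0e-10). DBA/2J went from 1.86 to 14.6 CPM (median 4.49) to 44.4 to 321 (median 95.8), a 17.4-fold increase (log2 4.12, SE 0.66, adjusted p = 1.5e-06). In both strains every WD mouse exceeded every CD mouse. 129S1/SvImJ rose by 3.42 (SE 0.55, adjusted p = 9.3e-07), from 4.25 to 18.4 CPM (median 9.00) to 78.7 to 126 (median 108), and C57BL/6J by 3.41 (SE 0.52, adjusted p = 2.7e-07), from 2.45 to 42.9 (median 4.10) to 48.6 to 128 (median 76.3). The highest of these CD mice, mouse 2, was also the highest in summed cholangiocyte (75.3 CPM), recruited macrophage (622) and adipocyte markers (471), and the part of these markers was not tested. A/J rose by 2.68 (SE 0.70, adjusted p = 0.0073), from 4.71, 7.62, 5.30, 5.21 and 5.61 CPM in its 5 CD mice to 13.2 to 203 (median 30.1). The groups did not overlap in these strains either.

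WSB/EiJ rose by 2.77 in Lcn2 (SE 0.55, adjusted p = 0.00020), from 6.14 to 67.3 CPM (median 10.1) on CD to 35.9 to 1378 (median 61.0) on WD, by 1.99 (adjusted p = 0.0025) without the 2 mice and by 2.44 (adjusted p = 0.00052) without the 3. Its diets overlapped, because CD mouse 3 had 67.3 CPM. CAST/EiJ stayed at 0.758 to 6.00 CPM (median 0.907) on CD and 1.08 to 2.63 (median 1.71) on WD, a difference of 0.43 (SE 1.16, adjusted p = 0.86), and of 0.82 (adjusted p = 0.67) without the 2 mice. On WD the A/J mice were 20.9-fold above those of CAST/EiJ (log2 4.39, SE 0.82, adjusted p = 3.0e-06, with 59.8% of all genes differing), and the highest CAST/EiJ WD mouse lay below the lowest WD mouse of every other strain. On CD the neighbouring strains overlapped throughout, but CAST/EiJ did so only through CD mouse 4 (6.00 CPM, where the next had 1.40). The lowest CD mouse of any other strain had 1.86 CPM, in DBA/2J.

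**Figure D4:**
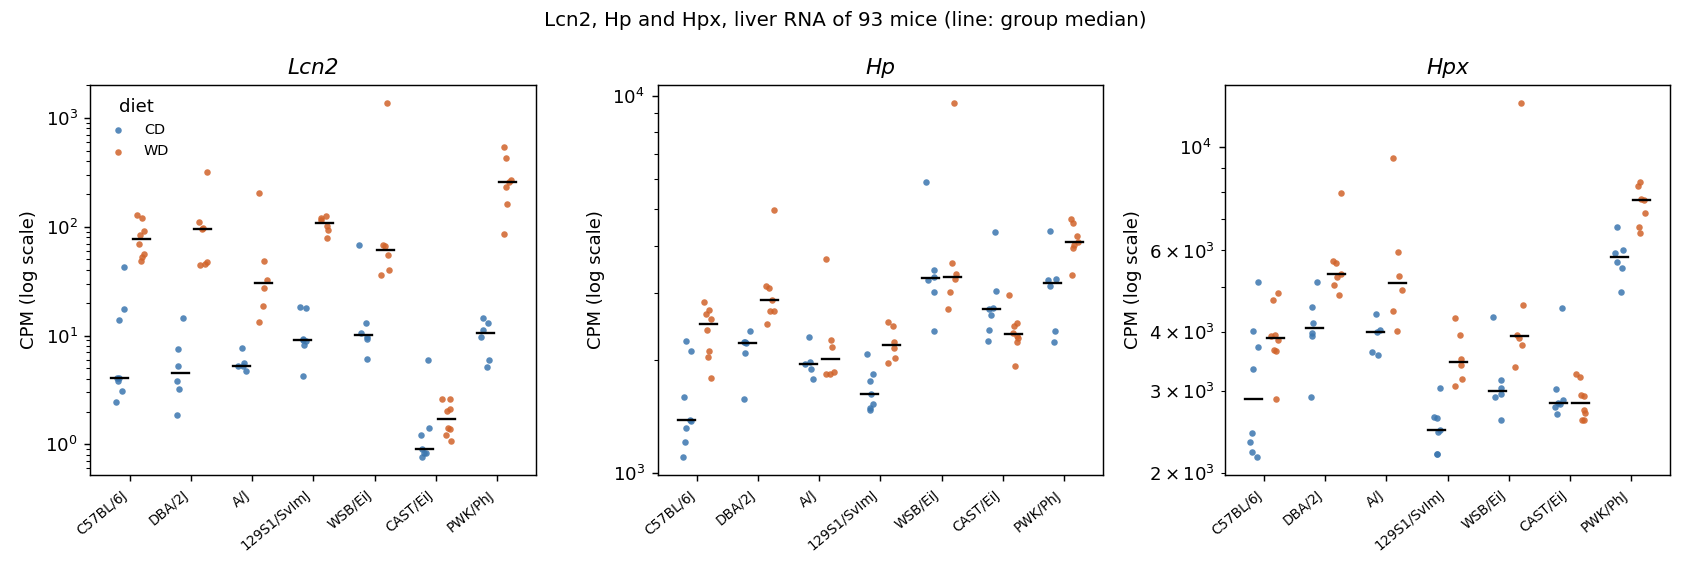
CPM on a log scale (y axis) of Lcn2, Hp and Hpx in each of 93 mice by strain (x axis) and diet (blue CD, orange WD), with a line at each group median. Lcn2 of CAST/EiJ WD mice ends at 2.63 CPM, below the WD mice of all other strains, whereas Hp is at 1101 CPM or more in every mouse.

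Neutrophil markers, taken because neutrophils store lipocalin 2, rose in part of the strains in which Lcn2 rose. Their sum over 12 genes went from 3.38 to 6.04 CPM on CD to 7.29 to 12.7 on WD in PWK/PhJ, with 5 of 12 genes up, from 3.21 to 5.91 to 9.37 to 31.5 in 129S1/SvImJ (8 of 12), and from 5.15 to 14.0 to 11.3 to 17.5 in C57BL/6J (3 of 12). In DBA/2J, where Lcn2 rose 17.4-fold, the sum was 6.32 to 11 CPM on CD and 4.96 to 17.0 on WD, with 3 of 12 up. In WSB/EiJ, where Lcn2 rose as well, it was 2.00 to 7.02 CPM and 3.68 to 20.0, with 1 of 12 up and 0 without the 2 mice. In A/J it was 4.24 to 5.76 and 4.38 to 41.8 CPM, and in CAST/EiJ 4.42 to 16.8 and 4.50 to 14.7, with 0 of 12 up in both by limma-voom, and 1 in each at an unadjusted p below 0.05. In all groups but 1 these summed markers stayed at 31.5 CPM or below in every mouse, the exception being A/J WD mouse 3 at 41.8 CPM, which also had the highest Lcn2 (203 CPM) and Saa1 (412 CPM) of its group. The part of the marker changes in the Lcn2 result was not tested.

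Hp and Hpx, which bind hemoglobin and heme, were abundant in all groups and changed little. Hp rose by 0.66 in C57BL/6J (SE 0.15, adjusted p = 0.00062), from 1541 ± 418 CPM (SD, n = 8) to 2384 ± 371 (n = 8), and by 0.54 in DBA/2J (SE 0.17, adjusted p = 0.019), from 2117 ± 283 (n = 6) to 3137 ± 851 (n = 7). In PWK/PhJ it was 3107 ± 769 (n = 6) and 4145 ± 458 CPM (n = 7), a difference of 0.44 (SE 0.18, adjusted p = 0.051), and in CAST/EiJ it was 2875 ± 706 (n = 7) and 2376 ± 294 (n = 8), a difference of -0.25 (SE 0.16, adjusted p = 0.29). The 129S1/SvImJ difference was 0.41 (adjusted p = 0.066). Without the 2 mice, which are of other strains, Hp passed in PWK/PhJ (0.44, adjusted p = 0.018) and in 129S1/SvImJ (0.41, adjusted p = 0.026). The DBA/2J call was lost without CD mouse 1, the lowest at 1574 CPM, or without WD mouse 3, the highest at 4995 CPM.

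Hpx rose in 129S1/SvImJ by 0.50 (SE 0.17, adjusted p = 0.016), from 2512 ± 292 CPM (n = 7) to 3566 ± 468 (n = 6), and there all 6 WD mice were above all CD mice. It rose by 0.60 in WSB/EiJ (SE 0.17, adjusted p = 0.016), while the difference was 0.32 (adjusted p = 0.18) without the 2 mice and 0.41 (adjusted p = 0.083) without the 3. It rose by 0.47 in DBA/2J (SE 0.17, adjusted p = 0.043), a call lost in 8 of 13 fits that left out 1 of its mice. PWK/PhJ had the highest Hpx of all strains on CD, 5786 ± 609 CPM (n = 6), and 7525 ± 714 (n = 7) on WD, with a difference of 0.38 (SE 0.17, adjusted p = 0.091). C57BL/6J differed by 0.37 (adjusted p = 0.061) and A/J by 0.48 (adjusted p = 0.091). Without the 2 mice, which are of other strains, these differences kept their size and passed. The adjusted p was then 0.031 in PWK/PhJ, 0.017 in C57BL/6J and 0.028 in A/J.

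The strength of the diet effect differed among the 7 strains for 6 of the 10 genes by an F test over strains, where 37.5% of all genes passed. These were Orm1 (adjusted p = 8.7e-13), Saa3 (3.8e-05), Orm3 (0.00019), Orm2 (0.00043), Hp (0.014) and Lcn2 (0.026), whereas Hpx (0.16), Saa1 (0.12), Saa2 (0.085) and Saa4 (0.57) did not pass. Without the 2 mice that stood apart, Saa1 (adjusted p = 0.016) and Saa2 (0.0074) passed as well, but without the 3 Saa1 did not (0.051) and Saa2 did (0.021). The level of all 10 genes differed between strains on CD, as did 93.7% of all genes, and on WD, as did 93.9%.

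Set against the mean effect of the other 6 strains, PWK/PhJ had a stronger response in Orm1 (log2 3.69 higher, SE 0.34, adjusted p = 2.2e-14), Orm2 (2.01, SE 0.64, adjusted p = 0.020) and Lcn2 (1.91, SE 0.64, adjusted p = 0.029), where 16.3% of all genes differed. C57BL/6J had a stronger one in Orm3 (3.78, SE 0.85, adjusted p = 0.0035; 4.69% of all genes), and WSB/EiJ in Saa3 (1.82, SE 0.40, adjusted p = 0.0091; 0.947%). For Orm2 the C57BL/6J difference was 1.41 (adjusted p = 0.12). It passed without the 2 mice (1.42, adjusted p = 0.020) and without the 3 (1.37, adjusted p = 0.019). In 129S1/SvImJ the effect was stronger in Saa3 (1.39, SE 0.40, adjusted p = 0.025) and weaker in Orm3 (-1.35, SE 0.44, adjusted p = 0.049; 6.28%), and in DBA/2J it was weaker in Saa3 (-1.38, SE 0.45, adjusted p = 0.043; 7.77%). CAST/EiJ had a lower effect in Orm1 (-1.44, SE 0.28, adjusted p = 0.00017), Orm2 (-2.22, SE 0.61, adjusted p = 0.0075), Hp (-0.65, SE 0.18, adjusted p = 0.0070) and Hpx (-0.55, SE 0.17, adjusted p = 0.018; 14.5%), and these 4 also passed without the 2 mice and without the 3. No gene passed in A/J by limma-voom (0.466% of all genes did), with 1 at an unadjusted p below 0.05, and this contrast was not run with other tools. Without the 2 mice 5 more genes passed in WSB/EiJ, all with a lower effect, and of these only Orm2 also passed without the 3 (-1.96, SE 0.42, adjusted p = 0.0051). Saa1 (adjusted p = 0.22), Saa2 (0.13), Orm1 (0.095) and Orm3 (0.062) did not, so their calls rested on keeping CD mouse 3, while Saa3 passed in both.

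The mice of a strain came in 2 cohorts, or 3 in CAST/EiJ. WSB/EiJ came only in cohorts 6 and 7, which held no other strain. Level differences between WSB/EiJ and other strains and differences between cohorts therefore cannot be told apart. In PWK/PhJ, C57BL/6J and WSB/EiJ the WD minus CD difference of all 10 genes had the same sign in both cohorts, in WSB/EiJ with WD mouse 4 kept. In 129S1/SvImJ it did for all but Orm1 (-0.01 and 0.26 on the log2 scale), and in DBA/2J Orm1 gave 0.26 and -0.13. Saa1 differed by 2.34 and 0.56 in the cohorts of A/J, by 0.35 and 2.45 in those of WSB/EiJ, and by 1.73, 0.91 and -0.37 in those of CAST/EiJ, the last from the cohort with CD mouse 4. Lcn2 differed by 2.83 and 2.60 in WSB/EiJ and Saa3 by 3.48 and 2.99.

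WSB/EiJ WD mouse 4 was the highest of its group in all 10 genes. It had 5725 CPM of Saa2, 1899 of Saa4, 2827 of Orm1, 395 of Orm2, 323 of Orm3, 1378 of Lcn2, 63.3 of Saa3, 9585 of Hp and 12462 of Hpx, and the 10 genes took 4.28% of its gene reads. Its RNA integrity number was 8.6, and its summed neutrophil markers were 20.0 CPM, the highest of the group. CAST/EiJ CD mouse 4 had 135 CPM of Orm2, 249 of Saa4, 6.00 of Lcn2 and 16.8 CPM of neutrophil markers, again the highest of its group. Mice with high values of several of the 10 genes were thus seen on either diet.

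Most of the 10 genes varied together from mouse to mouse within groups, and Saa3 had r near 0 with some of them on CD. After subtracting the group means from log2 CPM, all 45 pairs were positively correlated over 93 mice, with Pearson's r from 0.347 (Saa3 and Orm3, adjusted p = 0.0055) to 0.992 (Saa1 and Saa2) and a median of 0.618, and all passed a permutation test of 100000 resamples by Pearson's r and by Spearman's rho, adjusted over the 45 pairs. The smallest p these permutations can give is 1e-05. How often pairs of other genes pass the same test was not computed, so the count of 45 has no background beside it. Orm2 and Lcn2, which lie on different chromosomes and share no 50-base window, had r = 0.859 and rho = 0.797 (r = 0.833 without the 2 mice farthest from the median of Orm2). Saa1 and Orm2 had r = 0.855, Saa1 and Hp 0.824, and Lcn2 and Hpx 0.843, whereas Saa3 was related less to Lcn2 (0.366) and Hpx (0.356). Over the CD mice alone, Saa3 had r = -0.01 with Orm3, 0.08 with Hpx and 0.09 with Lcn2, and over the WD mice 0.55, 0.54 and 0.58. With Hp and Orm2 it had 0.24 and 0.29 on CD, and 0.62 and 0.60 on WD. With Orm1, Saa1, Saa4 and Saa2 it had 0.57, 0.45, 0.45 and 0.44 on CD, and 0.59, 0.71, 0.66 and 0.72 on WD. No test compared r between the diets. Saa1 and Lcn2 had r = 0.770 and rho = 0.664 (r = 0.692 without the 2 farthest mice). Centring within cohorts as well kept all 45 pairs positive, with adjusted p of at most 0.014.

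**Figure D5:**
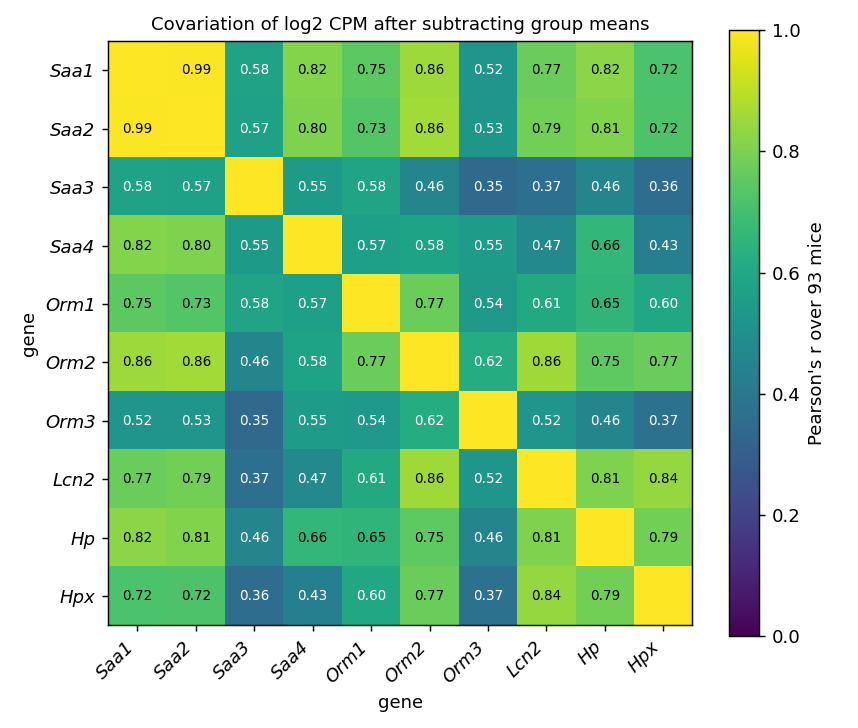
Pearson's r between each pair of the 10 genes over 93 mice, from log2 CPM after subtracting group means, shown by colour and printed in each cell. Saa1 and Saa2 reach 0.99, and the row of Saa3 holds low values, with 0.37 for Lcn2 and 0.36 for Hpx.

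Among all 19110 genes, the same measure over 93 mice named the genes outside the 10 that were most like each one. Saa1 was most like Itih4 (r = 0.830), which encodes an inter-alpha-trypsin inhibitor heavy chain, Lrg1 (0.819), a leucine-rich plasma glycoprotein, and Jak3 (0.788), a cytokine receptor kinase. Hp shared Lrg1 (0.808) and Jak3 (0.777) with it and had Lbp (0.756), the lipopolysaccharide-binding protein. Orm1 was most like C4b (0.793), a complement component, Lcn2 like Tmem176a (0.804) and Slc13a3 (0.781), Orm2 like Slc13a3 (0.811), and Hpx like Apcs (0.774), serum amyloid P. Saa3 stood with Tap2 (0.591), a peptide transporter of antigen presentation, and Acod1 (0.589), the itaconate-producing enzyme of activated macrophages, and Orm3 had no gene above 0.579.

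Other positive acute phase genes did not rise as a block. Of 18 such genes, 5 rose and 4 fell in PWK/PhJ (median log2 fold change -0.05), 7 rose and 3 fell in C57BL/6J, 5 rose and 2 fell in 129S1/SvImJ, 2 rose and 1 fell in DBA/2J, 2 fell in A/J, 3 fell in CAST/EiJ and 0 changed in WSB/EiJ. At an unadjusted p below 0.05, 3 were higher and 4 lower in WSB/EiJ, and 6 fell there without the 2 mice. Without the 2 mice C57BL/6J and PWK/PhJ had 6 lower each, 129S1/SvImJ 5 and A/J 4, with the same numbers higher as before. None of these strains held either mouse, and the fit shares the spread over all 14 groups. For Saa1 in C57BL/6J the fold change was 3.12 both with and without the 2 mice, while its SE went from 0.68 to 0.55. The number of genes in this list past the threshold thus depended on this choice. The counts over this and the following lists are by limma-voom alone, and the shares of all genes called are those given above for each strain. In PWK/PhJ Cd14, the lipopolysaccharide co-receptor, rose by 2.74 (SE 0.30, adjusted p = 1.3e-11), from 2.19 to 15.8 CPM on average, and Mt1, a metallothionein, by 1.67 (SE 0.54, adjusted p = 0.013). Hamp, which encodes the iron hormone hepcidin, fell by 1.50 on the log2 scale (adjusted p = 0.0067). The fibrinogen genes, named here after their values were seen, were also lower in PWK/PhJ, Fga by 0.60, Fgb by 0.61 and Fgg by 0.62. In CAST/EiJ the 3 that fell were Il1rn, Fgl1 and Apcs, and all 3 also fell without the 2 mice (adjusted p = 0.00050, 0.0017 and 7.3e-05).

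Of 8 negative acute phase genes, whose products fall in inflammation, 7 fell in PWK/PhJ (median -0.59), where 14.5% of all genes fell, with Alb from 97173 to 60247 CPM on average (log2 -0.69, adjusted p = 1.6e-08), Ahsg by 0.63 and Ttr by 0.62. The number was 5 in A/J, 4 in C57BL/6J, 129S1/SvImJ and WSB/EiJ, and 3 in DBA/2J, where 7.77% of all genes fell. In CAST/EiJ 1 of 8 fell, a share near the 9.73% of all genes. None rose in any strain, at an unadjusted p below 0.05 either (0 higher in each). Alb, albumin, is the 1 that fell in CAST/EiJ, by 0.76 on the log2 scale (adjusted p = 3.4e-10).

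Of the cytokines and receptors upstream, 12 of 15 passed the filter, while Il6, Osm and Il22 did not and were at most 0.254, 0.322 and 0.0422 CPM in any mouse. In PWK/PhJ 4 rose and 2 fell, led by Lif, a gp130 cytokine (log2 3.22, from 0.0834 to 0.804 CPM, adjusted p = 1.5e-06), Tnf (1.78, adjusted p = 0.0088) and Osmr, the oncostatin M receptor (1.25, adjusted p = 4.0e-06). C57BL/6J had 6 up and 1 down, 129S1/SvImJ 4 up and 2 down, A/J 2 down, DBA/2J 1 down, and CAST/EiJ and WSB/EiJ 0, with 0 and 2 higher at an unadjusted p below 0.05. Transcription factors and feedback genes moved little, with 3 of 13 up in C57BL/6J, 1 up in PWK/PhJ, 1 up and 3 down in 129S1/SvImJ, 3 down in DBA/2J, 2 down in CAST/EiJ, and 1 down in A/J and in WSB/EiJ. Cebpd, which encodes C/EBPδ, rose by 1.15 (adjusted p = 0.00031) and Cebpb by 0.66 (adjusted p = 0.0079) in C57BL/6J, and both fell in CAST/EiJ, by 0.75 (adjusted p = 0.031) and 0.55 (adjusted p = 0.048) on the log2 scale. Without the 2 mice they fell by 0.97 and 0.70 in CAST/EiJ.

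Of 10 genes for receptors and scavengers of these proteins, 5 rose in PWK/PhJ (with 1 lower), C57BL/6J and 129S1/SvImJ, where 15.1%, 14.3% and 14.5% of all genes rose. In WSB/EiJ 3 rose, or 1 without the 2 mice, and in A/J, DBA/2J and CAST/EiJ 1 each, which in the latter pair is near the 10.2% and 9.77% of all genes. In PWK/PhJ Tlr2, a receptor for SAA, rose by 1.89 (adjusted p = 1.3e-11), and Cd36, a scavenger receptor, and Tlr4 by 1.13 each. Recruited macrophage markers rose in 9 of 10 genes in PWK/PhJ, C57BL/6J (with 1 lower) and 129S1/SvImJ, in 4 in WSB/EiJ, 2 in A/J, 1 in CAST/EiJ and 0 in DBA/2J (0 at an unadjusted p below 0.05 as well), where Saa1 and Lcn2 rose. Of 8 Kupffer cell markers, 129S1/SvImJ had 5 higher on WD, and C57BL/6J and PWK/PhJ had 4 each. Of 4 adipocyte markers tested, 2 rose in C57BL/6J and 1 each in DBA/2J, 129S1/SvImJ and PWK/PhJ. Cholangiocyte markers rose in 5 of 6 in PWK/PhJ and 1 in 129S1/SvImJ, and of 10 hepatocyte markers PWK/PhJ and 129S1/SvImJ had 5 lower on WD, C57BL/6J 4 (with 1 higher), DBA/2J, A/J and CAST/EiJ 3, and WSB/EiJ 1. The hepatocyte markers summed to 18908 CPM or more in every mouse, so the labelled tissue was present in all libraries, and the part of the marker changes in the results for the 10 genes was not tested.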

How the data were processed

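Liver RNA was sequenced by the authors from 93 male mice, bred in house, whose livers were perfused with saline before collection. Libraries were made with a SMARTER mRNA kit and sequenced on a BGISEQ-500, reads were checked with FastQC and mapped with STAR 2.7.1a (version from the submitters' processing notes) to the C57BL/6J genome (GRCm38), and the deposited values are raw counts of reads per gene. The annotation release, the strand setting and the read length are not given in the sources used here. Rows for unmapped, multimapping, ambiguous and featureless reads were left out of the library sizes. Group means of these were 2.11% to 13.3% of reads unmapped, 8.61% to 11.6% multimapping, 3.81% to 5.31% ambiguous and 4.22% to 4.95% without a feature. Strain and diet came from the labels of each sample, and every count column matched a sample. No pair of libraries held identical counts. Nothing says that a library was repeated, so each mouse was 1 replicate.

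From the counts, genes passing filterByExpr with a minimum count of 10 were kept (19110 of 53465), scaled by TMM (factors 0.810 to 1.27) and fitted by limma-voom (limma 3.58.1, edgeR 4.0.16, R 4.3.3) with 1 mean for each of the 14 groups. Adjusted p are Benjamini-Hochberg values over all genes tested in each contrast, with 0.05 as the threshold, and tests are two-sided. CPM are TMM scaled, and log2 CPM for correlations has a prior count of 2. Permutation tests used scipy 1.17.1, numpy 2.4.6 and pandas 2.3.3 on Python 3.11.15. The fit was tested on simulated counts. Alternatives were edgeR's quasi-likelihood test, DESeq2 1.42.0, upper-quartile factors, no filter or at least 10 counts in every mouse, cohort or RNA integrity as a covariate, quality weights, a separate fit for each strain, a prior count of 0.5, close paralogs summed, each mouse left out in turn, and the 2 mice that stood apart in Saa1 left out, alone or with WSB/EiJ CD mouse 3, the last 2 chosen after seeing the data. Genes of other lists were named if they were among the 3 largest changes of their list past the threshold in PWK/PhJ or in a strain set beside it, and genes like a member as its 3 highest Pearson's r. The 10 genes and all lists were chosen with earlier results of these data known. Gene positions are from the GENCODE annotation of GRCm38, and promoter sequences are from RefSeq on GRCm38.p6. The limma-voom p-values set a difference of group means against the spread between mice, which is shared over the 14 groups. A mouse far from its group therefore also affects the SE of other strains.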

Additional observations from a re-analysis of the deposited data

Results flagged for a closer look

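In 22 of 140 sets of 1 gene in 1 group, the highest or lowest mouse lay farther from the rest than Dixon's 95% critical value, and chance flags about 1 in 20 such groups. The 22 fell on 7 mice. WSB/EiJ WD mouse 4 gave 8 of them, with 10892 CPM of Saa1, 5725 of Saa2, 2827 of Orm1, 395 of Orm2, 323 of Orm3, 1378 of Lcn2, 9585 of Hp and 12462 of Hpx. CAST/EiJ CD mouse 4 gave 6, with 356 CPM of Saa1, 322 of Saa2, 249 of Saa4, 135 of Orm2, 6.00 of Lcn2 and 4523 of Hpx. These 2 mice were on different diets, and both had the highest summed neutrophil markers of their group.

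DBA/2J WD mouse 3 was far above its group in Orm2 (149 CPM), Hp (4995) and Hpx (7957), and WSB/EiJ CD mouse 3 in Lcn2 (67.3). A/J WD mouse 3 was far above its group in Hp (3694 CPM). The others were low values. C57BL/6J WD mouse 3 had 333 CPM of Orm1 and 1.45 of Orm3, the lowest of its group, and 53.3 CPM of summed cholangiocyte markers against 11.5 to 15.4 in the others, and DBA/2J CD mouse 1 had 1574 CPM of Hp.

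The diet effect differed between the 7 strains by the F test for Orm1 (adjusted p = 8.7e-13), Saa3 (3.8e-05), Orm3 (0.00019), Orm2 (0.00043), Hp (0.014) and Lcn2 (0.026). In Orm1 this was an increase of 3.87 on the log2 scale in PWK/PhJ against 0.67 in C57BL/6J and -0.53 in CAST/EiJ. In Saa3 the log2 fold changes ran from 0.60 in DBA/2J to 3.35 in WSB/EiJ, and in Orm3 from 1.21 in WSB/EiJ to 5.61 in C57BL/6J.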

How the results depend on the processing

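No paired analysis was possible because the labels give no replicate numbers shared between diets. Of 763 log2 fold changes of single genes recomputed under alternatives, 676 kept their sign and side of the threshold, 52 gained a call, 18 lost one and 17 changed sign, and with each mouse left out the numbers were 870, 13, 30 and 17 of 930. The cause was not tested except where a left-out mouse is named.

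The number of genes upregulated in A/J (2) was 6 with DESeq2, 4 with quality weights and without the 2 mice that stood apart, 5 without these and WSB/EiJ CD mouse 3, and 1 without a filter, with a minimum of 10 counts per mouse and with paralogs summed to 7 features. In CAST/EiJ (1) it was 3 with DESeq2, 2 with upper-quartile factors, with at least 10 counts, with cohort as a covariate, with quality weights and without the 2 or the 3 mice, and 0 without a filter, and DESeq2 called 2 genes lower there against 0. In WSB/EiJ (5) it was 2 in a separate fit. With paralogs summed the number was 5 in DBA/2J and PWK/PhJ and 4 in 129S1/SvImJ. Without the 3 mice it was 10 in C57BL/6J (against 9), 10 in PWK/PhJ (against 8) and 9 in 129S1/SvImJ (against 7). Leaving out 1 mouse gave 8 to 9 in C57BL/6J, 6 to 8 in DBA/2J, 1 to 3 in A/J, 7 to 9 in 129S1/SvImJ, 3 to 5 in WSB/EiJ, 1 to 2 in CAST/EiJ and 7 to 9 in PWK/PhJ, and the lowest in A/J was without WD mouse 3 and in WSB/EiJ without WD mouse 4.

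Without the 2 mice the difference in WSB/EiJ changed sign in Saa1 (-0.015), Saa2 (-0.067), Orm1 (-0.19), Orm2 (-0.10) and Hp (-0.10), and in CAST/EiJ in Orm2 (0.64) and Hpx (0.016), and without the 3 in WSB/EiJ in Orm1 (-0.091) and in CAST/EiJ in Orm2 (0.64) and Hpx (0.018). In CAST/EiJ Saa1 was -1.92 by edgeR (adjusted p = 0.084) and by DESeq2 (adjusted p = 0.049), and Saa2 -2.04 (adjusted p = 0.073) and -2.05 (adjusted p = 0.039). Orm2 in CAST/EiJ was 0.0032 with upper-quartile factors, 0.027 with cohort and 0.23 with quality weights. Leaving out 1 mouse gave -0.014 to 1.84 for Saa1, -0.067 to 1.82 for Saa2, -0.19 to 0.39 for Orm1, -0.10 to 0.97 for Orm2 and -0.10 to 0.31 for Hp in WSB/EiJ, and -0.026 to 1.15 for Saa1, -0.051 to 1.12 for Saa2, -0.25 to 0.64 for Orm2 and -0.11 to 0.016 for Hpx in CAST/EiJ. In DBA/2J Orm1 gave -0.012 to 0.13. Orm3 in C57BL/6J CD mice rests on 9 to 67 reads, the thinnest of these values.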
